A study of Mus musculus with 6 samples.

Results

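The 41 genes described here encode the machinery that finds and repairs damaged DNA, with the Fanconi pathway among it. They were chosen by name from the 54532 genes of the deposited count table, and every one of the 41 symbols matched 1 gene of the table. They fall into 8 roles: break sensing and signalling, non-homologous end joining, homologous recombination, the Fanconi pathway, RecQ helicases, base excision repair, nucleotide excision repair and mismatch repair. The study measured polyadenylated RNA in 6 libraries, 3 from cells given vehicle and 3 from cells given uridine, the pyrimidine nucleoside of RNA. Both groups were haematopoietic stem and progenitor cells (HSPCs) taken from marrow of C57BL/6 mice that were aged and wild type, and both had been in culture before RNA was extracted, so the vehicle cells are cultured cells and not cells fresh from marrow. The labels used here give neither the age of the mice, nor the dose, the duration, or the sort that defined the HSPCs, and no label says whether the 3 libraries of a group came from separate mice or cultures. The p-values below therefore measure the spread between these libraries, which may be technical.

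Cells repair DNA by routes that match the damage. A double-strand break is sensed by the MRE11-RAD50-NBN complex and the kinases ATM and ATR, marked by phosphorylated histone H2AX, and then either joined end to end by the DNA-dependent protein kinase pathway or copied from the sister chromatid by BRCA1, BRCA2 and their partners. The Fanconi core complex adds ubiquitin to the FANCD2-FANCI pair so that crosslinks between the DNA strands can be cut out. Altered bases and mismatches are removed by the excision and mismatch pathways. Blood stem cells are known to depend on these routes, since loss of Fanconi genes causes marrow failure.

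Of the 41 genes, 11 fell with uridine (26.8%) and 0 rose, at an adjusted p under 0.05 in edgeR's quasi-likelihood test fitted over all genes. Over all 14706 genes tested, 10.1% fell and 7.18% rose. Among the 11498 genes with a mean of at least 50 counts, which all 41 reached, 12.2% fell and 9.09% rose. At an unadjusted p under 0.05, 15 of the 41 were lower and 3 were higher, and DESeq2 called 10 lower and 0 higher. The shares of all genes lower by these measures are not given here, so these counts are not set against a background. The genes that fell were the break signalling genes Mdc1 and H2afx, the end-joining kinase Prkdc, the recombination genes Bard1 and Brca2, the Fanconi genes Fanca, Fancd2 and Fanci, the helicase Wrn, the lesion sensor Xpc and the mismatch gene Msh6. Their changes ran from a log2 fold change of -0.35 for Prkdc to -0.12 for Msh6. The middle size of a fall among all genes that fell was 0.24 on the log2 scale. The median log2 fold change of the 41 was -0.06, against 0.0053 over all genes tested, and 30 of them (73.2%) lay below 0, against 48.6% of all genes. In bulk RNA, fewer cells of a type and less RNA per cell cannot be told apart.

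**Figure D1:**
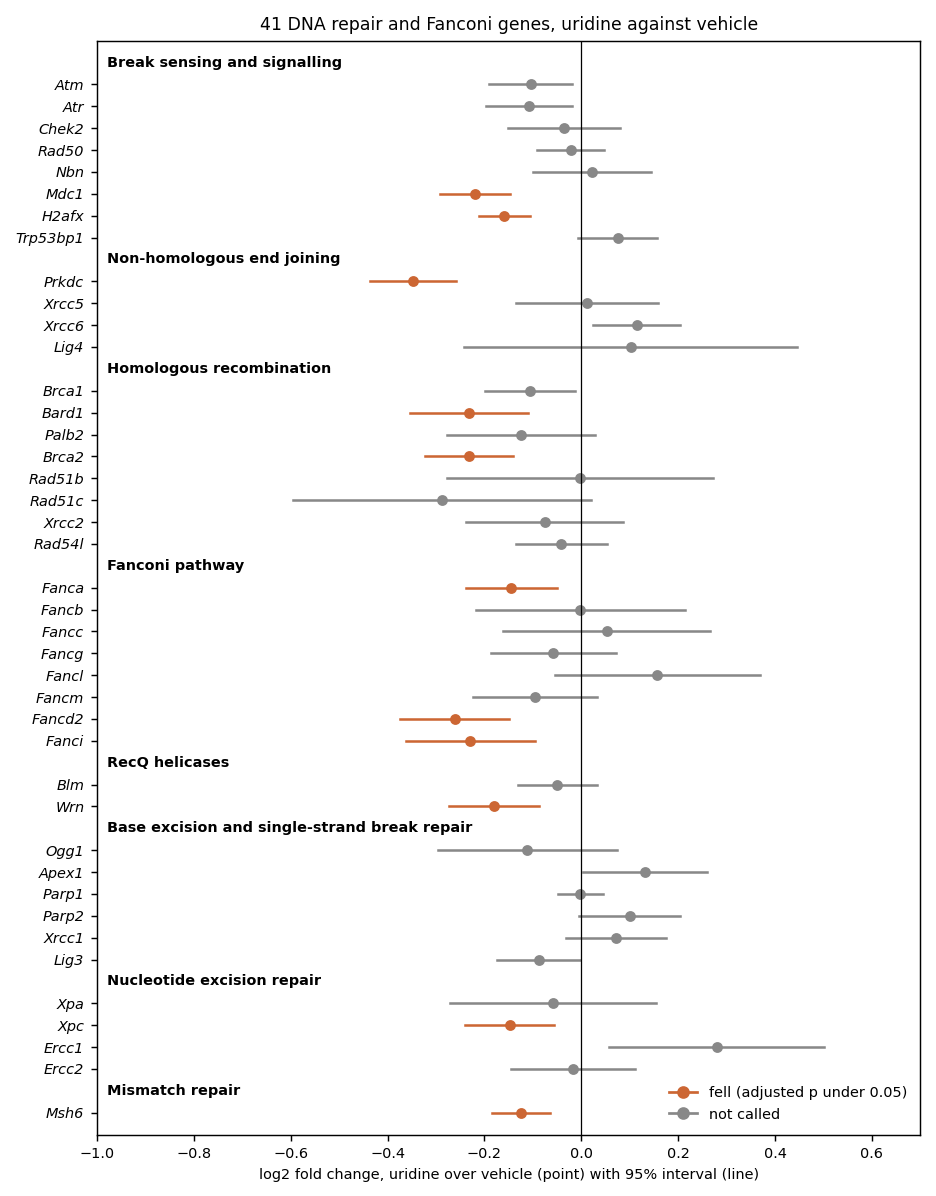
Log2 fold change of uridine over vehicle for each of the 41 repair genes, grouped by role, with points for the estimate and bars for its 95% interval. The 11 genes that fell lie left of 0 in 7 of the 8 roles, and the base excision genes hold none.

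Of 98 other genes of the same pathways, 7 fell (7.14%), 4 rose (4.08%) and their median log2 fold change was -0.0055. Among those that fell were Clspn, the adaptor of the checkpoint kinase CHK1 (log2 fold change -0.15, adjusted p = 0.00356), Rad18, a ubiquitin ligase of lesion bypass (log2 fold change -0.16, adjusted p = 0.00943), and Rif1, a partner of 53BP1 at breaks (log2 fold change -0.10, adjusted p = 0.0128). The 4 that rose were Paxx, an accessory factor of end joining (log2 fold change 0.34, adjusted p = 0.00289), Rpa3, a subunit of the single-strand binding complex (log2 fold change 0.23, adjusted p = 0.00909), Rmi1, a partner of the BLM helicase (log2 fold change 0.26, adjusted p = 0.0177), and Hus1, a subunit of the checkpoint clamp (log2 fold change 0.18, adjusted p = 0.0280). With the length trend removed 3 of the 98 fell and 3 rose, Rif1 lay at -0.055 (adjusted p = 0.267) and Rpa3 at 0.16 (adjusted p = 0.0918), while Clspn, Rad18, Paxx, Rmi1 and Hus1 still passed. Of these named genes, Rad18 alone passed in all 15 alternatives. Over the alternatives the adjusted p reached 0.0637 for Clspn (without vehicle library 3), 0.0843 for Paxx (without uridine library 1), 0.106 for Rmi1 (without vehicle library 2), 0.104 for Rpa3 (without vehicle library 3) and 0.190 for Hus1 (without uridine library 2). Hus1 also lost the call without vehicle library 1 (adjusted p = 0.0653), vehicle library 3 (0.118) or uridine library 3 (0.0768), and in DESeq2 (0.0743). Rmi1 also lost it without uridine library 1 (adjusted p = 0.0634) or uridine library 2 (0.0544), Clspn without uridine library 1 (adjusted p = 0.0601), and Rif1 without vehicle library 3 (0.0994) or uridine library 3 (0.0661). Whether the 41 genes differ from these 98 was not tested.

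The libraries held 16109265 to 18638627 counts, and the 41 genes took between 83 and 7113 counts each per library. The replicates of a group differed by more than counting noise, with a chi-square per gene of 2.27 to 2.50, and the common biological coefficient of variation was 3.42%. Summed over the 41 genes, the level was 3017 to 3044 CPM (TMM-scaled counts relative to library size) with vehicle and 2832 to 2889 with uridine, so the groups did not overlap. The labelled cell type was checked on 14 HSPC markers, all of which were detected: 6 rose and 5 fell. Kit, the stem cell factor receptor, measured 365 ± 1.64 CPM with vehicle and 383 ± 3.12 with uridine, Cd34 measured 620.1 ± 15.01 and 618 ± 9.63, and Ly6a, which encodes Sca-1, measured 15.03 ± 0.838 and 3.50 ± 0.659. All 11 monocyte and macrophage markers tested fell, from a summed 502 to 523 CPM with vehicle to 215 to 219 with uridine. Of 12 neutrophil markers 10 fell and 1 rose, Ltf, with a sum of 2880 to 2952 CPM in vehicle and 1575 to 1617 CPM in uridine. The erythroid sum was 684 to 713 CPM with vehicle and 753 to 766 with uridine, with Hba-a1 at 0 counts in all 6 libraries. Lymphoid markers summed to 35.1 to 37.2 and 25.4 to 30.3 CPM, and stromal and endothelial markers to 204 to 207 and 195 to 201 CPM. Only 6 of 10 erythroid markers passed the count filter, of which 3 rose and 1 fell. Among lymphoid markers 7 of 10 passed it, of which 2 fell and 0 rose. For stromal and endothelial markers it was 3 of 8, with 0 called and a top count of 2356 for a single gene. The part of these shifts in the repair gene results was not tested.

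E2F factors drive many genes of S phase, so the promoters of the repair genes were searched for an E2F word. Windows of 250 bases upstream of the RefSeq start (assembly GRCm38.p6) existed for 33 of the 41 genes, and for 27025 genes in all. The genes without one were Fancd2, H2afx, Nbn, Prkdc, Rad50, Wrn, Xpc and Xrcc2. The letters searched, on both strands, were TTTCCCGC, TTTCGCGC, TTTGCCGC and TTTGGCGC. At least 1 of these words stood in a window of 6 of the 33 genes (18.2%) and of 2.16% of all genes with a window. The 27025 genes of this background, also used for the other words below, were not limited to the 14706 genes tested. A gene with several RefSeq starts has a window for each and was counted once. Of the 6 genes that fell and have a window, 3 held it, namely Bard1, Brca2 and Mdc1. Of the 27 others, 3 held it, namely Chek2, Fancg and Xrcc6. The 6 windows are printed because they carry this shared feature among genes that fell and genes that did not. Each is written 5' to 3' along the strand of its gene, with the motif word in capitals on the strand as printed.
Bard1: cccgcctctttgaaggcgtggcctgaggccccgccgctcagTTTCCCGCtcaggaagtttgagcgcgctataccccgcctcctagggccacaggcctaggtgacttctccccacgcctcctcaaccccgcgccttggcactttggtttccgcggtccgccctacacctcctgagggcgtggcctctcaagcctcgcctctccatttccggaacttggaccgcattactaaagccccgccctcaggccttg
Brca2: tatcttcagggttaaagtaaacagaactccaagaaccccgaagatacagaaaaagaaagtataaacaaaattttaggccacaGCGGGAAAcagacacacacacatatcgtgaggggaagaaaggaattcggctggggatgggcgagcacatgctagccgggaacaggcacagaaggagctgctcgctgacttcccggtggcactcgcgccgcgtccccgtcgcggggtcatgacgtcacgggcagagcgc
Mdc1: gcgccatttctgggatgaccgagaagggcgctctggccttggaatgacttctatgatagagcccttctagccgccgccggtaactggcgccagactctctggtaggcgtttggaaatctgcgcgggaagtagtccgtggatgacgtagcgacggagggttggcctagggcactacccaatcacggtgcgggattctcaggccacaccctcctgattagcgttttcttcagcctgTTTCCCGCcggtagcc
Chek2: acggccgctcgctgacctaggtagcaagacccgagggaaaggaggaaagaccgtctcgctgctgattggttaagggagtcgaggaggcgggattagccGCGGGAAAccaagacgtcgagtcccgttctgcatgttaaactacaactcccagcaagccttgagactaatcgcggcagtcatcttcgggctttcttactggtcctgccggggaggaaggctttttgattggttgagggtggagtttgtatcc
Fancg: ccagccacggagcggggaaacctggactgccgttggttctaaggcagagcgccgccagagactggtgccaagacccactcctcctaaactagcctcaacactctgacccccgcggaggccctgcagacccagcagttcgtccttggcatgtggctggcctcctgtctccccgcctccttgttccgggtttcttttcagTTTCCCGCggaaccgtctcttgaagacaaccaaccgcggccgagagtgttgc
Xrcc6: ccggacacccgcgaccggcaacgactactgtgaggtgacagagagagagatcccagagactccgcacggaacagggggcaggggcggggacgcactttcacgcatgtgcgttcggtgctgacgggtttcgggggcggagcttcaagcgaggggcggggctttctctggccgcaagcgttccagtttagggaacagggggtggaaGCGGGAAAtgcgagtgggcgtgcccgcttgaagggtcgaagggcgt
The windows lie at chr1:71102973-71103222 (minus strand), chr5:150522371-150522620 (plus strand), chr17:35841248-35841497 (plus strand), chr5:110839733-110839982 (plus strand), chr4:43010302-43010551 (minus strand) and chr15:82016119-82016368 (plus strand). From the end of the word to the RefSeq start there are 201 bases in Bard1, 160 in Brca2, 8 in Mdc1, 144 in Chek2, 44 in Fancg and 38 in Xrcc6. The Xrcc6 window belongs to a RefSeq start 28534 bases from the start of the deposited gene. For Fancg this distance was 205 bases, with the word inside the deposited gene, and for Bard1 it was 174. The Fancc window, without the word, belongs to a RefSeq start 65533 bases away. A match describes these letters and not a bound site. The CCAAT box (CCAAT) stood in a window of 18 of the 33 genes (54.5%, against 37.5% of all genes), the cell-cycle homology region (TTTGAA) only in that of Bard1 (18.3% of all genes), the TATA box (TATAAA) only in that of Brca2 (14.3%), and an NRF1 word only in that of Lig4 (0.877%).

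Break sensing and signalling opened the list with 2 of 8 genes that fell. Positions are those of the deposited table on mm10. Mdc1, on chromosome 17 (chr17:35841515-35859670, ENSMUSG00000061607), encodes the scaffold that binds phosphorylated H2AX and gathers repair factors there. Its level was 146, 139 and 152 CPM with vehicle and 121, 125 and 129.8 CPM with uridine, and the groups did not overlap. The log2 fold change was -0.22 ± 0.036 (SE, adjusted p = 1.9e-06), a change of -14.2% (95% interval -18.4% to -9.75%). H2afx, on chromosome 9 (chr9:44334694-44336077, ENSMUSG00000049932), encodes the histone variant that carries the break mark. It measured 276, 285 and 272 CPM with vehicle and 251, 251 and 244 CPM with uridine, again with no overlap, and fell with a log2 fold change of -0.16 ± 0.027 (SE, adjusted p = 2.8e-06), or -10.4% (95% interval -13.7% to -7.08%). H2afx holds 203 bases that match a copy, Gm11336, to 96.1%, so reads from those bases are of uncertain origin. The other 6 genes did not pass. The damage kinase genes Atm and Atr lay at log2 fold changes of -0.10 and -0.11 with adjusted p of 0.0839 and 0.0828. With the length trend removed they lay at -0.057 and -0.0029, with adjusted p of 0.434 and 0.981. Atm passed in 1 of the 15 alternatives, without vehicle library 2 (adjusted p = 0.0105). The checkpoint kinase gene Chek2, the break sensor genes Rad50 and Nbn and the end-resection inhibitor Trp53bp1 had log2 fold changes of -0.036, -0.022, 0.022 and 0.075. For Rad50 the interval ran from -0.091 to 0.046 on the log2 scale. Trp53bp1, with a deposited length of 14164 bases, passed in the settings that removed the length trend and in no other (log2 fold change 0.15, adjusted p = 0.00866).

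In end joining 1 of 4 genes fell, the kinase gene Prkdc. Prkdc encodes the catalytic subunit of the DNA-dependent protein kinase, which is recruited to DNA ends by the Ku pair. It lies on chromosome 16 (chr16:15637866-15842235, ENSMUSG00000022672). Its level was 92.9, 91.8 and 88.7 CPM with vehicle and 74.0, 71.4 and 69.3 CPM with uridine, a log2 fold change of -0.35 ± 0.045 (SE, adjusted p = 3.1e-09) and a change of -21.4% (95% interval -26.1% to -16.4%). Of all tested genes, 8.27% had a log2 fold change as low or lower. The Ku genes Xrcc5 and Xrcc6 and the ligase gene Lig4 did not pass. Xrcc6 measured 76.1, 79.4 and 84.5 CPM with vehicle and 85.6, 89.0 and 85.2 CPM with uridine, which does not overlap, with a log2 fold change of 0.11 ± 0.045 (SE, adjusted p = 0.0672). Xrcc6 passed in 2 of the 15 alternatives, without vehicle library 3 (adjusted p = 0.0230) and when library size alone set the scale (0.0441). Over the alternatives its adjusted p reached 0.304. Xrcc5 had a log2 fold change of 0.011 with an interval of -0.14 to 0.16. Lig4, which seals the joined ends, was the lowest of all 41 genes per length, and its log2 fold change of 0.10 had an interval of -0.24 to 0.45 on the log2 scale.

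Homologous recombination held 8 genes, all with a log2 fold change below 0, of which 2 passed. The median of the 8 was -0.12, against 0.0053 over all genes tested. With the length trend removed it was -0.086, against 0.0025 over all genes tested. Of 16 other homologous recombination genes, 8 lay below 0, 0 fell and 1 rose, and their median was 0.00080. Bard1 encodes the partner of BRCA1 and lies on chromosome 1 (chr1:71027498-71103146, ENSMUSG00000026196). It measured 49.2, 48.8 and 51.2 CPM with vehicle and 42.4, 44.6 and 39.8 CPM with uridine, a log2 fold change of -0.23 ± 0.061 (SE, adjusted p = 0.00329) and a change of -14.9% (95% interval -21.7% to -7.39%). Brca2, a mediator of strand exchange in recombination, lies on chromosome 5 (chr5:150522630-150570329, ENSMUSG00000041147). Its level was 88.0, 85.6 and 88.4 CPM with vehicle and 78.3, 70.9 and 74.1 CPM with uridine, a log2 fold change of -0.23 ± 0.045 (SE, adjusted p = 5.6e-05) and a change of -14.8% (95% interval -20.0% to -9.33%). The windows of both genes held the E2F word above. Brca1, the ubiquitin ligase gene whose product pairs with BARD1, had vehicle levels of 76.6, 83.6 and 78.6 CPM and uridine levels of 73.5, 76.0 and 72.3 CPM, with no overlap and an adjusted p of 0.109. Palb2, the bridge between BRCA1 and BRCA2, lay at -0.12 ± 0.076 (SE, adjusted p = 0.297). The recombination genes Rad51b, Rad51c and Xrcc2 and the motor gene Rad54l had log2 fold changes of -0.0032, -0.29, -0.076 and -0.041, and none passed. Rad51c had 95 to 140 counts per library, and its 95% interval reached from -0.59 to 0.020.

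In the Fanconi pathway 3 of 8 genes fell (37.5%), against 10.1% of all genes tested. With the length trend removed 2 of the 8 fell, against 8.83% of all genes. The break signalling and recombination roles then also had 2 genes that fell. Of 12 other Fanconi genes, 2 fell and 4 lay below 0. Fancd2 encodes 1 of the 2 proteins that the core complex marks with ubiquitin, and it is on chromosome 6 (chr6:113531682-113597017, ENSMUSG00000034023). It measured 55.1, 60.4 and 56.7 CPM with vehicle and 47.1, 47.7 and 48.9 CPM with uridine, a log2 fold change of -0.26 ± 0.056 (SE, adjusted p = 2.8e-04) and a change of -16.6% (95% interval -22.8% to -9.81%). Fanci, its partner, is on chromosome 7 (chr7:79391929-79450264, ENSMUSG00000039187). It measured 41.3, 42.9 and 40.4 CPM with vehicle and 37.6, 36.0 and 32.5 CPM with uridine, a log2 fold change of -0.23 ± 0.067 (SE, adjusted p = 0.00913) and a change of -14.7% (95% interval -22.2% to -6.45%). Without vehicle library 2 or uridine library 3 the adjusted p of Fanci was 0.0554 or 0.0991. Fanca, a core subunit on chromosome 8 (chr8:123268300-123318576, ENSMUSG00000032815), measured 77.4, 84.5 and 83.5 CPM and 75.8, 76.8 and 69.3 CPM and fell with a log2 fold change of -0.14 ± 0.047 (SE, adjusted p = 0.0226), or -9.52% (95% interval -15.2% to -3.43%). Its adjusted p was 0.134, 0.0999 and 0.194 without vehicle library 2, vehicle library 3 and uridine library 3, 0.118 with the length trend removed and 0.0759 in DESeq2. The remaining core subunit genes Fancb, Fancc and Fancg, the ubiquitin ligase gene Fancl and the DNA translocase gene Fancm did not pass. In that order their log2 fold changes were -0.0019, 0.053, -0.058, 0.16 and -0.10. Fancl measured 11.9 to 14.27 CPM with vehicle and 14.33 to 15.4 CPM with uridine, which does not overlap, with an adjusted p of 0.356. Fancb took 217 to 273 and Fancc 223 to 302 counts per library, so their intervals were wide.

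Of the RecQ helicases, which unwind branched DNA, Wrn fell and Blm did not pass. Wrn, the gene of Werner syndrome of premature ageing in people, is on chromosome 8 (chr8:33234384-33385527, ENSMUSG00000031583). It measured 78.6, 79.5 and 85.6 CPM with vehicle and 72.8, 71.7 and 70.5 CPM with uridine, a log2 fold change of -0.18 ± 0.046 (SE, adjusted p = 0.00261) and a change of -11.8% (95% interval -17.2% to -5.93%). Without vehicle library 3 the adjusted p of Wrn was 0.0573. Blm measured 99.8, 100.02 and 96.1 CPM and 92.0, 94.9 and 99.2 CPM, with an interval of -0.13 to 0.032 on the log2 scale.

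No base excision gene passed, of 6. Parp1, the abundant nick sensor, measured 391, 379.6 and 376 CPM with vehicle and 388, 381 and 376 CPM with uridine. Its 95% interval for the change was -3.29% to 3.09%, the narrowest of the 41 genes. The glycosylase gene Ogg1, the nuclease gene Apex1, the second nick sensor Parp2, the scaffold gene Xrcc1 and the ligase gene Lig3 had log2 fold changes of -0.11, 0.13, 0.10, 0.071 and -0.088. The median of the 6 was 0.03. Parp2 had levels of 58.2, 55.5 and 58.3 CPM and 62.4, 61.6 and 60.3 CPM, which did not overlap, with an adjusted p of 0.200. In nucleotide excision, Xpc, which recognises helix-distorting lesions, was on chromosome 6 (chr6:91489305-91515888, ENSMUSG00000030094). It measured 82.4, 85.6 and 77.4 CPM with vehicle and 73.4, 74.2 and 73.8 CPM with uridine, a log2 fold change of -0.15 ± 0.046 (SE, adjusted p = 0.0156) and a change of -9.77% (95% interval -15.3% to -3.84%). Its adjusted p was 0.0504, 0.143 and 0.0512 without vehicle library 1, vehicle library 2 and uridine library 1. The damage verifier gene Xpa and the helicase gene Ercc2 did not pass, at log2 fold changes of -0.058 and -0.018. Ercc1, part of the incision nuclease, measured 12.3, 11.01 and 11.1 CPM and 13.5, 14.5 and 13.7 CPM, and its log2 fold change was 0.28 ± 0.11 (SE, adjusted p = 0.0736). Msh6, which recognises mismatches, was on chromosome 17 (chr17:87975050-87990883, ENSMUSG00000005370). It measured 222, 228 and 236 CPM with vehicle and 201, 218 and 209.8 CPM with uridine, a log2 fold change of -0.12 ± 0.030 (SE, adjusted p = 0.00106) and a change of -8.29% (95% interval -12.0% to -4.44%).

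**Figure D2:**
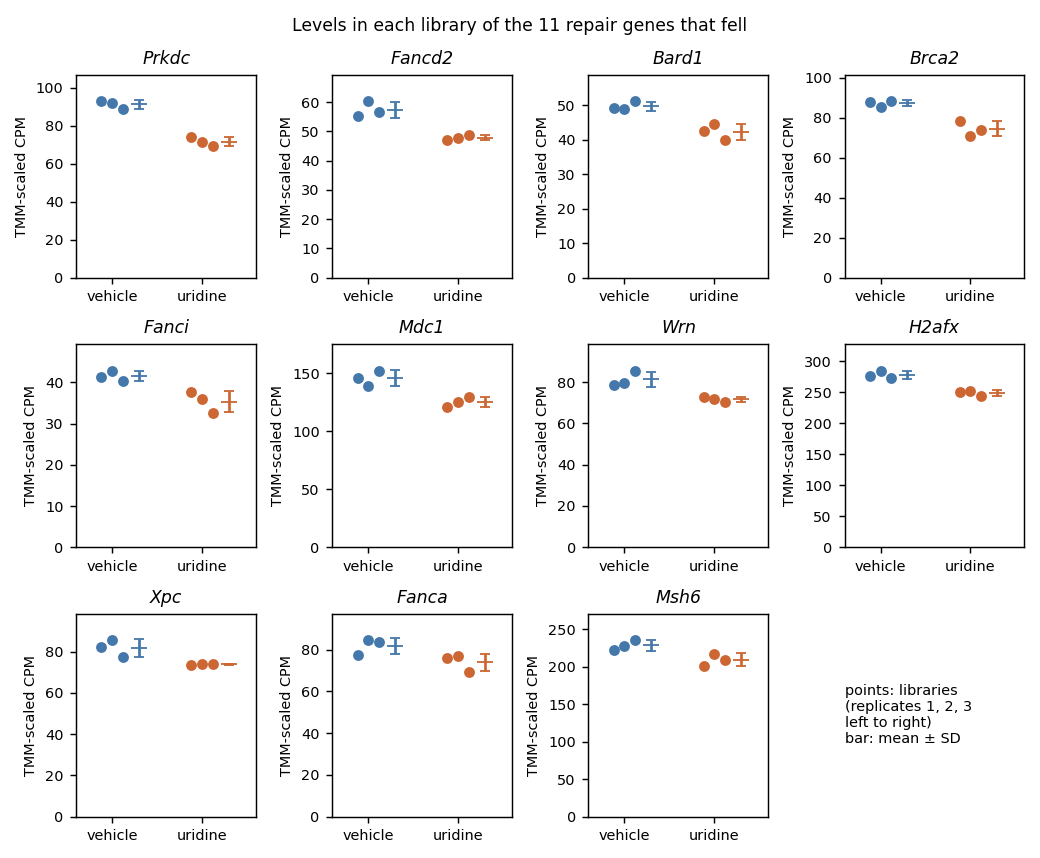
Level in TMM-scaled CPM of each of the 11 genes that fell, 1 panel a gene, with a point for each of the 3 vehicle and 3 uridine libraries and bars for the mean and SD. In every panel the uridine points lie below all vehicle points, as for Prkdc at 69.3 to 74.0 against 88.7 to 92.9 CPM.

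Across the whole list, 14 genes had every uridine library below every vehicle library (34.1%), against 16.1% of all genes tested. These were the 11 that fell with Atr, Brca1 and Xrcc2. The opposite pattern held for Ercc1, Fancl, Parp2 and Xrcc6, and for 14.7% of all genes.

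The levels differed far more between genes than between groups. Per kilobase of the deposited gene length, vehicle levels ran from 0.995 CPM for Lig4 to 200.6 CPM for H2afx, a ratio of 201.7. Parp1 followed at 72.2 and Msh6 at 53.7 CPM per kilobase, then Apex1 at 27.9 and Rad50 at 26.0. At the low end Fancc stood at 1.66. H2afx, Parp1 and Msh6 exceeded the rest by more than their spread between libraries. Ranks by the longest-coding-transcript length, computed after the data were seen, correlated with these at a rho of 0.93 over 41 genes, as a description.

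**Figure D3:**
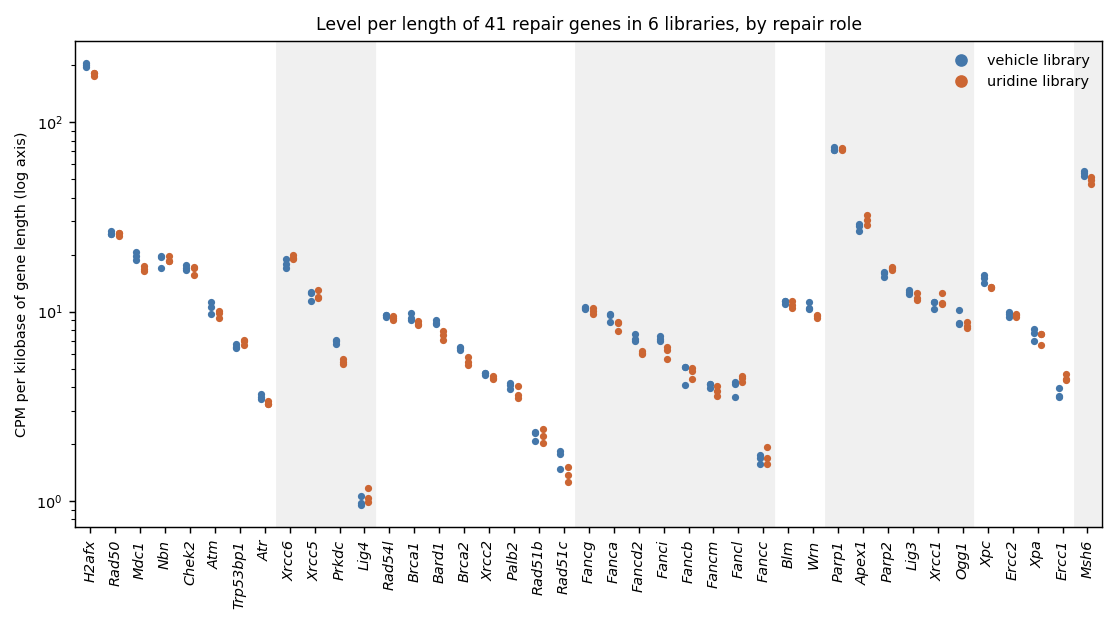
Level in CPM per kilobase of deposited gene length (log axis) of the 41 genes, with a point for each vehicle and uridine library and shading that separates the repair roles. H2afx stands highest at a vehicle mean of 200.6 and Lig4 lowest at 0.995.

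Longer genes had lower fold changes, and the repair genes were longer than most. The median deposited length was 5375 bases in the 41 genes and 3875 in all genes tested. Over all 14706 genes the rank correlation of length and fold change was -0.20, and over the 41 genes it was -0.39, both as descriptions. In the 2 longest of 10 length bins, from 6975 bases up, 20.9% of all genes fell, and 6 of the 16 repair genes there did (37.5%). In the other 8 bins 7.43% of all genes fell, and 5 of the 25 repair genes (20%). With the trend removed, the log2 fold change of Prkdc was -0.28 and that of the short gene H2afx was -0.22. With the length trend removed in each library, 10 of the 41 fell and 1 rose, Trp53bp1, against 8.83% and 6.13% of all genes, and 31 lay below 0, against 49.3% of all genes. The deposited length is the union of exons for 40 of the 41, so a gene with many transcripts counts as long, such as Atr at 23629 bases.

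**Figure D4:**
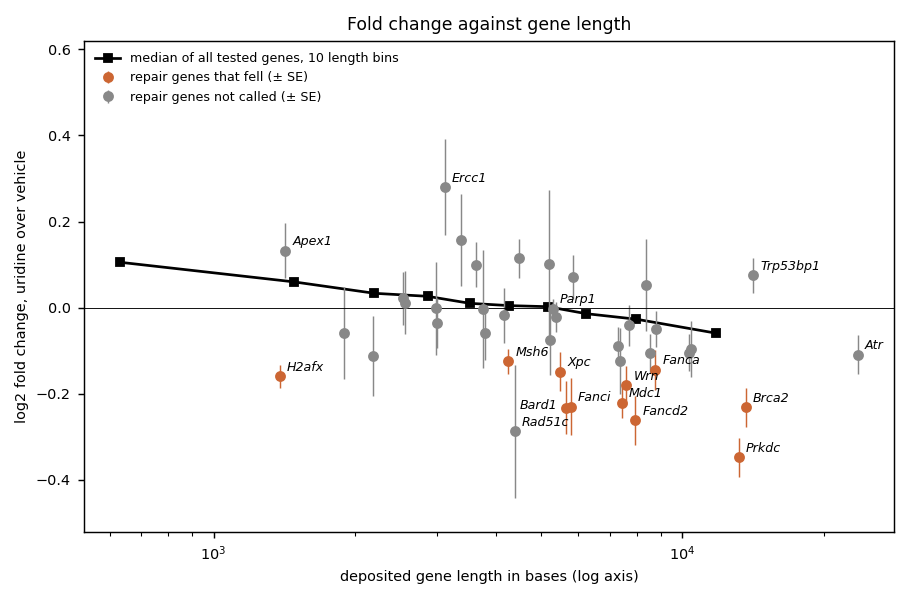
Log2 fold change against deposited gene length in bases (log axis), with black squares for the median of all tested genes in 10 length bins and points with SE bars for the 41 repair genes, orange where they fell. The squares pass from 0.11 in the shortest bin to -0.06 in the longest, and Prkdc lies lowest at -0.35.

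Within protein complexes the partners were compared as ratios of counts, in 10 pairs chosen after the data were seen. The ratios were not divided by gene length, so they compare the groups and not the levels of the partners. Per kilobase of deposited length, vehicle levels were 6.91 CPM for Prkdc, 12.17 for Xrcc5 and 17.88 for Xrcc6. The log2 ratio of Prkdc to Xrcc5 was 1.55 ± 0.10 (SD, n = 3) with vehicle and 1.19 ± 0.096 with uridine. The ratio of Prkdc to Xrcc6 was 0.19 ± 0.11 and -0.28 ± 0.058. Neither pair overlapped between groups, with an exact two-sided permutation p of 0.1, the smallest that 3 against 3 can give, and 0.286 after adjustment over the 10 pairs. The other 8 pairs overlapped, among them Fancd2 to Fanci, with a change of -0.027, and Xrcc5 to Xrcc6.

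Of the 41 repair genes, 16 had a coding neighbour that starts head to head on the opposite strand within 1000 bases. The share of all genes with such a neighbour is not given here. Of those neighbours 13 were tested and 1 was called, Zfyve26 beside Rad51b (log2 fold change -0.24). Over all genes tested, 17.3% were called in either direction. Among the genes that fell, Prkdc starts 466 bases from Mcm4, a subunit of the replicative helicase, which lay at log2 fold change -0.027, adjusted p = 0.546, and Fancd2 starts 30 bases from Emc3, at 0.03. Xpc and Lsm3 start 40 bases apart and Lsm3 lay at 0.0074. Wrn and Purg start 798 bases apart and Purg lay at -0.22 without passing. Exons of 15 of the 41 overlap a coding gene on the opposite strand. The counting strand is not given in the sources used here, so reads from the strands cannot be told apart there. Of the genes that fell, this touches Fanca (920 bases shared with Zfp276), Fanci (921 with Polg), Fancd2 (257 with Fancd2os) and Msh6 (34 with Fbxo11). These bases were counted on GENCODE vM21 exons, while the deposited positions of Msh6 and Fbxo11 overlap by 25 bases. Fancd2os measured 0.13 CPM with vehicle and 0.036 with uridine.

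Targets of p53, the damage-responsive transcription factor, and genes of cell division were counted beside the repair genes, and their counts are read against the 10.1% of all genes that fell. Of 20 targets of p53, 5 fell and 0 rose, named here after their values were seen: Pmaip1 (log2 fold change -1.68, adjusted p = 3.7e-21), Zmat3 (log2 fold change -0.18, adjusted p = 0.0100), Trp53inp1 (log2 fold change -0.18, adjusted p = 0.0129), Sesn1 (log2 fold change -0.14, adjusted p = 0.0180) and Ccng1 (log2 fold change -0.10, adjusted p = 0.00488). Pmaip1, which encodes the death protein NOXA, measured 21.8 ± 0.989 CPM with vehicle and 6.82 ± 0.0684 with uridine. The checkpoint inhibitor Cdkn1a lay at log2 fold change -0.078, adjusted p = 0.135 and Mdm2 at log2 fold change 0.060, adjusted p = 0.305, with neither passing. Only 11 of the 20 p53 targets lay below 0, and the median log2 fold change of the list was -0.013. Of 24 replication genes 3 fell, namely the nucleotide reductase gene Rrm2 (log2 fold change -0.19, adjusted p = 2.9e-07), Pole (log2 fold change -0.14, adjusted p = 0.00192) and Uhrf1 (log2 fold change -0.073, adjusted p = 0.0242), and 23 lay below 0. Of 20 genes of G2 and mitosis 6 fell, led by Mki67 (log2 fold change -0.17, adjusted p = 7.6e-12) and Top2a (log2 fold change -0.083, adjusted p = 3.8e-04), but only 9 of the 20 lay below 0 and their median was 0.0097. With the length trend removed, 4 of the p53 targets, 4 of the replication genes and 4 of the G2 and mitosis genes fell, and 1 replication gene rose, Mcm2 (log2 fold change 0.078). Pole then lay at -0.085 (adjusted p = 0.0896), Top2a at -0.046 (adjusted p = 0.0795) and Zmat3 at -0.13 (adjusted p = 0.106), none of which passed. Whether division and the repair genes moved together was not tested.

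**Figure D5:**
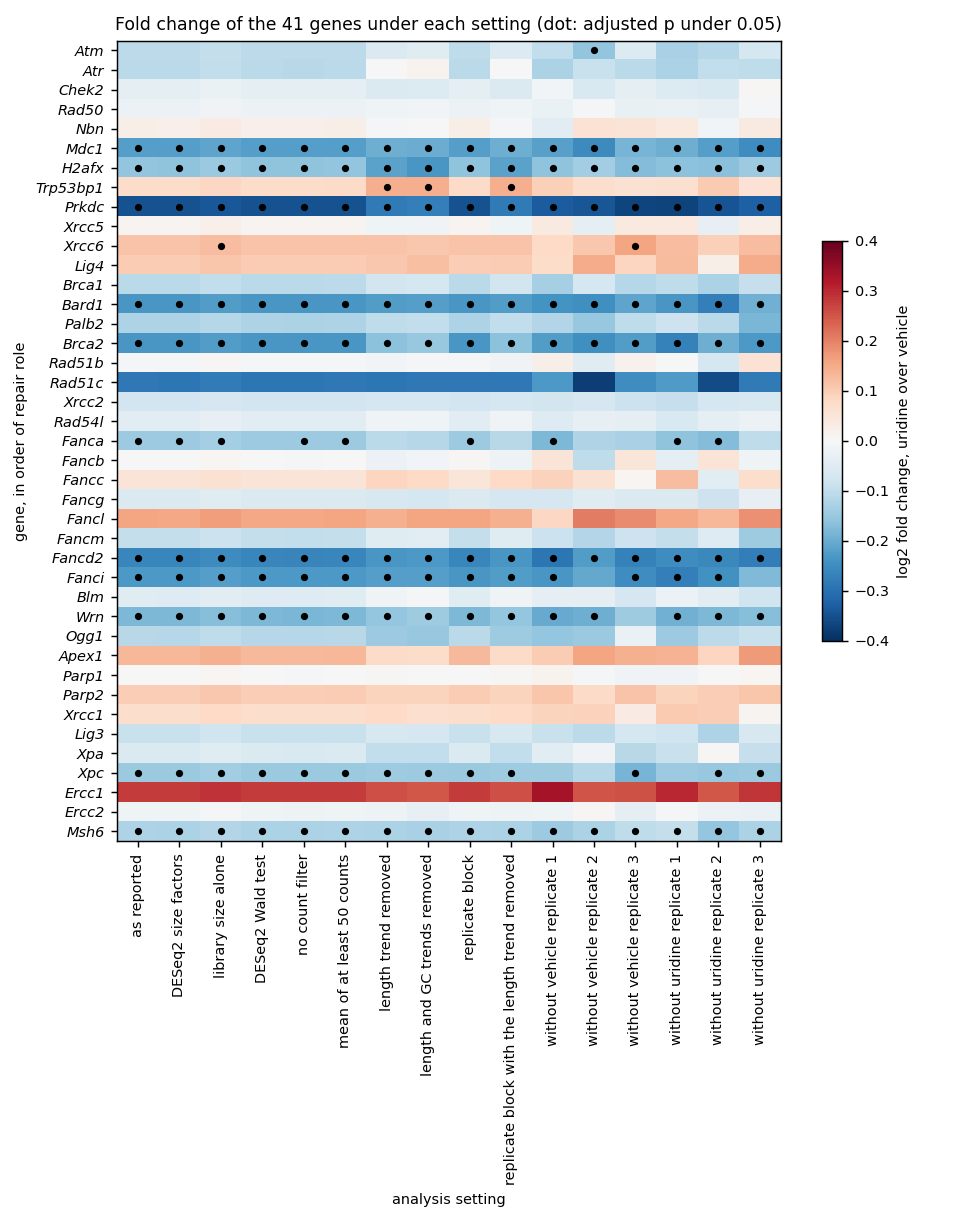
Log2 fold change (colour) of the 41 genes as reported and under the 15 other settings, with a dot where the adjusted p was under 0.05. Unbroken rows of dots belong to Mdc1, H2afx, Prkdc, Bard1, Brca2, Fancd2 and Msh6.

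Over these 15 settings, 7 of the 11 genes stayed called throughout, and the other 4 (Fanca, Fanci, Wrn and Xpc) kept their sign.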

How the data were processed

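RNA was measured by paired-end sequencing of poly-A libraries, 3 from vehicle and 3 from uridine cells, per the labels' protocols. The authors deposited raw read counts per gene, aligned with HISAT2 2.0.5 to mm10 per the submitters' processing notes. The counting tool, annotation release, strand setting and treatment of reads with several matches were not given in the sources used here. Genes were tested with edgeR 4.0.16 in R 4.3.3 (quasi-likelihood F test, default count filter, TMM scaling, Benjamini-Hochberg adjustment over the 14706 genes kept), with treatment as the only term and an adjusted p under 0.05 as the call. Levels are TMM-scaled CPM, computed here. Intervals are at 95%. Positions come from the deposited table, and starts and ends equal GENCODE vM21 for 40 of the 41 genes.

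The repair genes, the other gene lists, the markers and the promoter words were chosen with earlier results of these data known. Every repair gene is accounted for. Of the other repair genes and context lists, up to 4 genes with the smallest p-values in each direction are named, except 1 that is not reported here, and Kit, Cd34, Ly6a, Ltf, Mcm2, Mcm4, Cdkn1a, Mdm2, Zfyve26, Emc3, Lsm3, Purg, Pole, Uhrf1 and the p53 targets beyond Pmaip1 were added after their values were seen. The length trend was removed with a lowess (span 0.3) of each library's log2 deviation on log2 gene length. Alternatives were DESeq2 1.42.0, its size factors, library size alone, no count filter, a mean of at least 50 counts, GC content, a replicate block and leaving out each library.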

Additional observations from a re-analysis of the deposited data

How the results depend on the processing

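Of 15 alternatives, 6 left out 1 library each. With 1 library left out, 9 to 11 repair genes fell and 0 to 1 rose. Of the 98 other repair genes, 2 to 6 rose and 3 to 7 fell. The shares of all genes called in these fits are not given here, so the counts show only how the calls held. DESeq2's own test called 696 genes higher and 4 of the other repair genes lower. The repair genes that rose numbered 1 with library size alone, 1 with the length trend removed, 1 with length and GC trends removed and 1 in the replicate block with the length trend removed. The other repair genes that fell numbered 3 in each of the 3 settings that removed the length trend. Between the groups, correlations for equal replicate numbers were -0.015, 0.027 and -0.014, and those for unequal numbers ran from -0.024 to 0.038. This does not settle whether the libraries were paired by mouse or culture. The replicate block called 11 repair genes lower and 0 higher, with 1428 lower and 972 higher over all genes. No repair gene that fell changed sign, and 10 of the 30 others did. With length and GC trends removed the log2 fold change was 0.014 for Atr, -0.00079 for Nbn and -0.013 for Xrcc5. With the length trend removed it was -0.0063 for Nbn, -0.017 for Xrcc5 and 0.0034 for Parp1, and with the block added -0.0054, -0.017 and 0.0033. With library size alone it was 0.0060 for Rad51b, 0.0073 for Fancb and 0.0070 for Parp1, and the block alone gave 0.0036 for Fancb. With 1 library left out the log2 fold changes ran from -0.060 to 0.0048 for Chek2, -0.041 to 0.058 for Nbn, -0.038 to 0.039 for Xrcc5, -0.071 to 0.056 for Rad51b, -0.10 to 0.053 for Fancb, -0.042 to 0.12 for Fancc, -0.013 to 0.015 for Parp1, -0.11 to 0.0061 for Xpa and -0.040 to 0.0052 for Ercc2. The cause of these changes was not tested. Low counts limit Lig4, Rad51c and Rad51b most, whose intervals are the widest.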
